A study of Mus musculus with 9 samples.

Results

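Interleukins and their receptors were followed in mouse liver through 34 genes. The members are the protein-coding genes whose symbol starts with Il and a number, leaving out Il1b and Il18. This rule was set with earlier results of these data known. They are 34 of 13551 protein-coding genes and of 16755 genes in the deposited table. By role, 6 encode ligands, 24 receptor chains, 3 soluble or decoy antagonists (Il1rn, Il18bp and Il13ra2) and 1 an enzyme, Il4i1. A reference list of 87 mouse interleukin genes held 41 ligands, and 6 of these are among the members, which leave out Il1b and Il18. The other ligands were not analysed here.

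RNA was sequenced from whole liver tissue of 3 groups of 3 samples from mice on the C57BL/6 strain, males by the study's methods, all with floxed Scd2. Scd2f/f mice and Scd2f/f;CC mice, which also carry Cre under the Col1a1 promoter (Scd2f/f;Col1a1-Cre), received the carcinogen diethyl nitrosamine (DEN) at 10 mg/kg when 2 weeks old. Both then took Western alcohol diet (WAD), a fatty liquid diet that contains alcohol, starting at 6 weeks of age for 4 months by the labels, while the study's methods give a longer feeding. The control livers came from untreated Scd2f/f mice, whose age the labels do not give. The samples of treated mice are called tumor-adjacent liver (TAL) here after the study, which states that such tissue held microscopic tumors, although its sequencing methods use another term and the labels say only liver. Scd2f/f;CC TAL is also written as TAL with Cre. The Col1a1 promoter drives Cre in activated hepatic stellate cells (aHSC) and portal fibroblasts, so Scd2 stays intact in other cells by design. All treated mice received both DEN and WAD, so the effect of either alone cannot be told apart.

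The table gives 1 mean of normalized counts per group and no value of a single mouse. Every level below is therefore the authors' group mean, without an error, and no test across mice was run. A difference is called where the group means differ by 2-fold or more and the mean over the 3 groups is at least 1, a limit that 20 members passed and 14 did not. Depth of the samples is unknown. In whole tissue, fewer cells of a type and less RNA per cell cannot be told apart.

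Interleukins are secreted signals that leukocytes, stromal cells and epithelia use to direct inflammation. Receptors of the IL-1 family and of the IL-17 family recruit adaptor proteins that activate NF-kB, whereas most other interleukin receptors pair a private chain with a shared chain (gp130, the common gamma chain or the IL-10 receptor beta chain) and signal through JAK kinases and STAT factors. In liver, hepatocytes answer IL-6 and IL-1 with the acute phase response, IL-22 acts on hepatocytes and ductular cells, and resident Kupffer cells and recruited leukocytes are the main users of the lymphoid and myeloid chains. Soluble antagonists such as the IL-1 receptor antagonist and the IL-18 binding protein hold these signals in check.

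Scd2, the targeted gene, had a mean of 2.46 in control liver, 6.47 in Scd2f/f TAL and 1.87 in TAL with Cre. Its mean with Cre was 0.289 of that without. The tissue carried hepatocyte transcripts in all groups, with Alb from 20900 to 22700. The groups had nearly the same upper quartile of means over all genes, from 15.4 to 15.5, as the authors' scaling sets it.

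After DEN and WAD, antagonists (Il1rn and Il18bp), receptor chains (Il2rg, Il10ra and Il10rb) and a ligand (Il1a) had higher levels than in control liver. In Scd2f/f TAL against control liver, 6 of the 20 members with a mean of at least 1 were higher by 2-fold or more, which is 30% of them against 6.59% of 11008 protein-coding genes past the same limit. No member was lower by 2-fold, where 2.27% of protein-coding genes were. Of the 6 genes, 4 had a mean under 1 in control liver and so passed the limit through the TAL groups, which makes the count a description. Only Il18bp and Il10rb were at 1 or more in every group. The median log2 ratio of the 20 members was 0.28, and that of the protein-coding genes was 0.04.

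Between treated mice with and without Scd2 deletion in Col1a1-expressing cells, 1 receptor chain was past 2-fold. In Scd2f/f;CC TAL relative to Scd2f/f TAL, 1 of the 20 members, Il22ra1, was lower by 2-fold or more (5% against 1.5% of protein-coding genes). With 1 added to each group mean, Il22ra1 was under 2-fold, at a log2 ratio of -0.78, so this single call is a description. No member was higher by 2-fold, where 0.481% of protein-coding genes were. The median log2 ratio of the members was -0.25 and that of all protein-coding genes was 0. Scd2f/f;CC TAL against control liver had 5 members higher, 25% against 4.5%, and 1 lower, Il1r1, 5% against 2.19%. Of these 5 members, 4 had a mean under 1 in control liver and reached the limit through the TAL groups, so this count too is a description. The Scd2f/f TAL group stands in the first and second comparison and control liver in the first and the third, so the comparisons are not independent of each other.

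**Figure D1:**
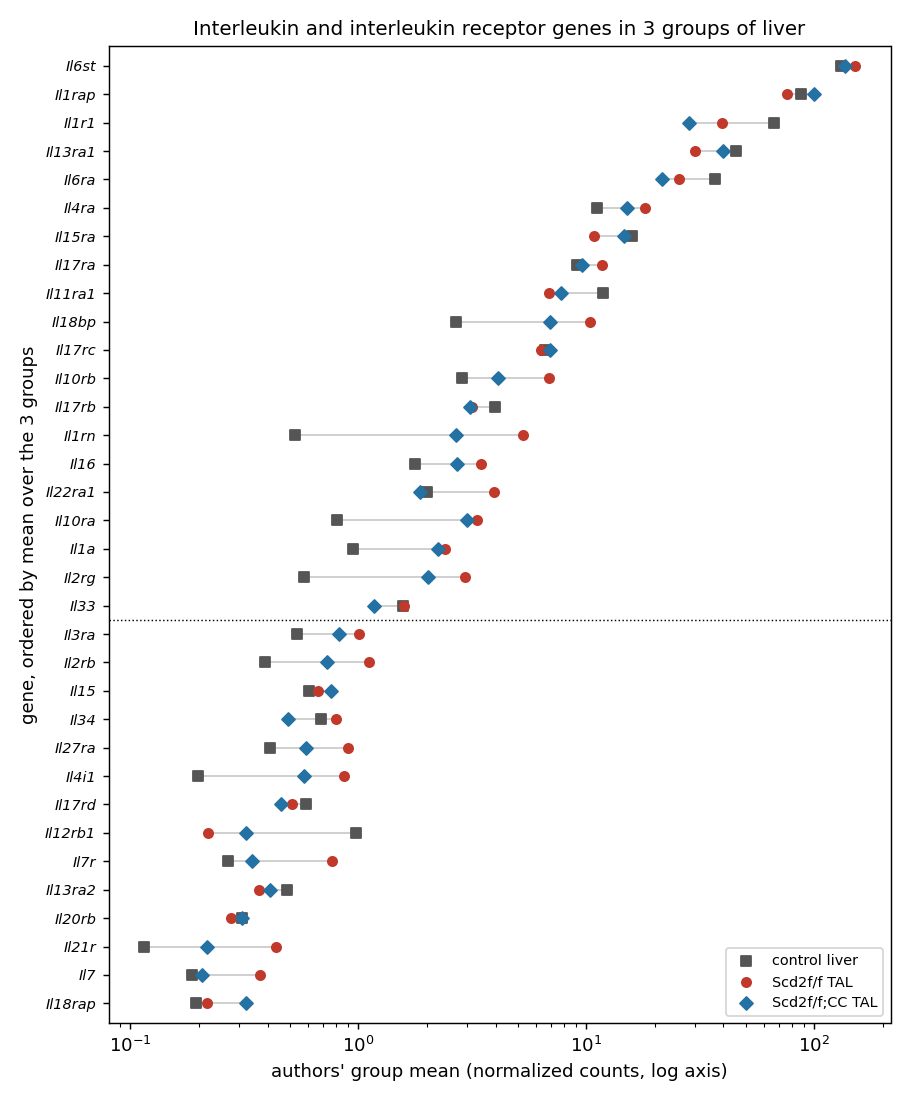
Authors' group mean of normalized counts, on a log axis, for the 34 members in control liver (squares), Scd2f/f TAL (circles) and Scd2f/f;CC TAL (diamonds). Genes above the dotted line had a mean over the 3 groups of at least 1. The widest gap between groups belongs to Il1rn, with 0.526 in control liver and 5.27 in Scd2f/f TAL, while Il6st at the top stays between 131 and 151.

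**Figure D2:**
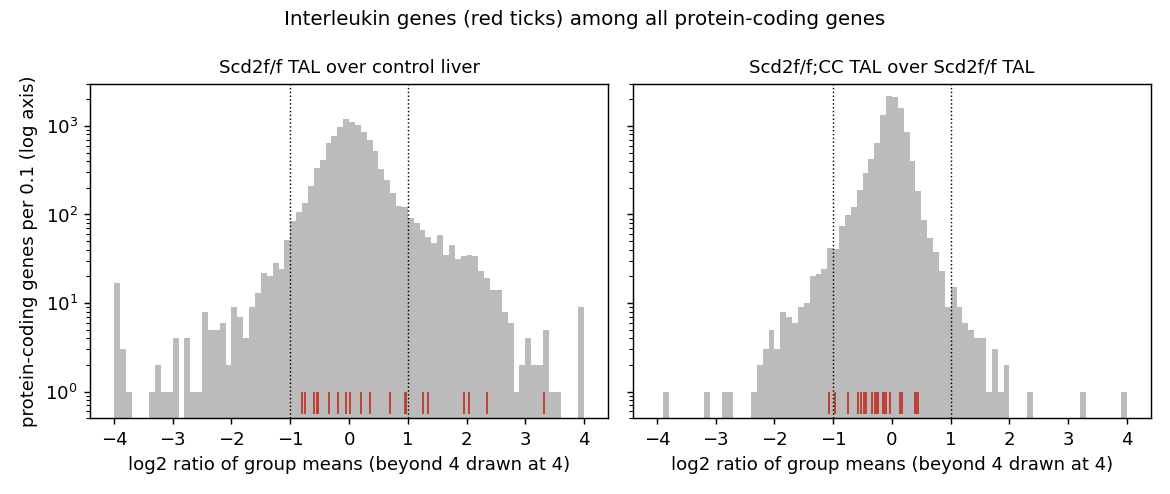
Log2 ratio of group means for the 11008 protein-coding genes past the limit of 1 (grey, number of genes per 0.1 on a log axis), with the 20 members as red ticks. Dotted lines mark 2-fold. In the left panel 6 members lie to the right of the 2-fold line, and in the right panel 1 lies to the left.

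Of the antagonists, Il1rn and Il18bp were higher in both TAL groups than in control liver by 2-fold or more, and Il13ra2 was not. Il1rn encodes the secreted antagonist that occupies the IL-1 receptor without signalling. Its mean was 0.526 in control liver, 5.27 in Scd2f/f TAL and 2.68 in TAL with Cre. The 2 TAL groups were thus 10.0-fold and 5.10-fold above control liver, and the mean with Cre was 0.509 of that without, just short of a 2-fold difference. When 1 was added to each group mean as a pseudocount, the Il1rn log2 ratio in Scd2f/f TAL was 2.04 in place of 3.32, so its size rests in part on the low mean of control liver. Il18bp encodes a secreted protein that binds and blocks IL-18. Its mean was 2.69 in control liver, 10.4 in Scd2f/f TAL and 6.94 in TAL with Cre, 3.87-fold and 2.58-fold above control liver. Between both TAL groups, Il18bp was 1.5-fold lower with Cre. Il13ra2, a receptor for IL-13 often described as a decoy, had means of 0.484, 0.365 and 0.408 in the same order and did not reach the limit of 1.

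The sequence before a start site of Il1rn is shown because this gene had the largest ratio of the members. Il1rn lies on chromosome 2 from 24336853 to 24351495 on the plus strand, and RefSeq on GRCm38.p6 gives windows for 3 start sites, the printed one lying inside the span of the gene. Windows of 300 bases (250 before a start and 50 after) were found for 25 members and searched on both strands for a simplified NF-kB site, GGG and TTTCC set apart by 2 bases. It was present in windows of 4 members, Il1rn, Il16, Il17rc and Il4ra, and in 1.89% of 27025 genes. In Il4ra the match lay after the start site and its sequence is not printed. The other motifs were each in windows of 1 or 2 members, namely TTCNNNGAA for STAT factors in 1 (9.55% of genes), GAGGAAGT for PU.1 in 2 (3.69%) and GAAA repeated after 2 bases for IRF factors in 1 (3.99%). The bases before the start are printed 5′ to 3′ on the strand of the gene, whole for Il1rn and around the match for Il16 and Il17rc, with the letters matching the NF-kB pattern or its reverse complement in capitals.
Il1rn, chr2:24345121-24345370, plus strand: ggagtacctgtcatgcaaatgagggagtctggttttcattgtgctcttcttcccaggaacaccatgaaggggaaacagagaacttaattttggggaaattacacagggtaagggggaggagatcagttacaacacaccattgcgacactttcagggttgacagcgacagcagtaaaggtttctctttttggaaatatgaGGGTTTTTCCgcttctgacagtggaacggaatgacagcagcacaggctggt
Il16, chr7:83655515-83655564, minus strand: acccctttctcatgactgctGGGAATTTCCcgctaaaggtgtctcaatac
Il17rc, chr6:113471205-113471248, plus strand: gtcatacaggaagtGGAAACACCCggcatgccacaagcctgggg
The match began 51 bases before the start in Il1rn, 49 before in Il16 and 236 before in Il17rc. In the window of another Il1rn start, the same match lay after the start. The Il16 window too lies inside the span of its gene, which runs from 83642825 to 83745727. The 4 genes did not share a level pattern, since Il1rn was 10.0-fold higher in Scd2f/f TAL, Il16 was 1.94-fold and Il4ra 1.62-fold higher, and Il17rc had a ratio of 0.962. A match of letters is a description only, and the table does not separate the starts of a gene.

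Ligands were few among the members. Il1a, an alarmin that signals through the IL-1 receptor, had a mean of 0.947 in control liver, 2.40 in Scd2f/f TAL and 2.24 in TAL with Cre. Both TAL groups were above control liver by more than 2-fold (2.53-fold and 2.37-fold), and differed little from each other, with a ratio of 0.933. With a pseudocount of 1, Il1a was under 2-fold, at a log2 ratio of 0.80 in Scd2f/f TAL. Of its exon bases, 11.2% are shared with Gm14023 on the opposite strand, and the library kit does not mark strand. Il16, a chemoattractant for CD4-expressing cells, had means of 1.78, 3.45 and 2.72, just short of 2-fold in Scd2f/f TAL, and 17.4% of its exon bases are shared with other genes. Il33, the nuclear alarmin recognized by the ST2 receptor, had the same level in control liver and Scd2f/f TAL, at 1.57 and 1.58, while with Cre it had 1.17, or 0.741 of the level without.

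The remaining ligands had means under 1. Il15, which sustains NK cells and memory CD8 T cells, had means of 0.609 in control liver, 0.664 in Scd2f/f TAL and 0.762 in TAL with Cre. Il34, the second ligand of the CSF-1 receptor, had 0.684, 0.798 and 0.493. Il7, a survival factor of lymphocytes, had 0.186, 0.370 and 0.205, so that the Scd2f/f TAL mean was 1.99-fold that of control liver and the mean with Cre was 0.554 of that without. None of the 3 was past 2-fold in any comparison.

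Receptor chains of the IL-1 family did not follow the antagonist. Il1r1, the signalling receptor for IL-1, had a mean of 66.7 in control liver, 39.5 in Scd2f/f TAL and 28.3 in TAL with Cre. It was 1.69-fold lower in Scd2f/f TAL than in control liver and 2.36-fold lower in Scd2f/f;CC TAL, the only receptor with a mean of at least 1 that was past 2-fold below control liver. Il1rap, the accessory chain that IL-1, IL-33 and IL-36 receptors share, had 87.4, 76.3 and 100, its level with Cre being 1.31 times that without. Per kilobase of exon, the receptor Il1r1 stood at 10.5 in control liver and 4.45 in Scd2f/f;CC TAL, and the antagonist Il1rn at 0.0950 and 0.484. On this scale the receptor stayed above its antagonist in tissue RNA of every group. Il18rap, the accessory chain of the IL-18 receptor, had a mean under 1 in all groups (0.194 to 0.320).

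Chains of the IL-6 and gp130 group were well expressed and differed by less than 2-fold. Il6st, which encodes gp130, had the highest mean of all members, with 131 in control liver, 151 in Scd2f/f TAL and 136 in TAL with Cre. Il6ra, the IL-6 binding chain, had 36.6, 25.5 and 21.6, so that it was 1.44-fold lower in Scd2f/f TAL and 1.69-fold lower in Scd2f/f;CC TAL than in control liver. Il11ra1, the receptor for IL-11, had 11.9, 6.84 and 7.71, and its ratio of 0.575 between Scd2f/f TAL and control liver was the lowest of the 20 members in that comparison. A close copy of this gene, Il11ra2, was not analysed here, so reads of Il11ra1 may have been split between them. Per kilobase of exon, gp130 stood at 11.8 in control liver, and Il6ra at 4.24 and Il11ra1 at 2.66.

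Chains for IL-4, IL-13 and IL-15 diverged. Il4ra, the alpha chain for IL-4 and IL-13, had a mean of 11.2 in control liver, 18.1 in Scd2f/f TAL and 15.1 in TAL with Cre, 1.62-fold and 1.35-fold above control liver. Its partner in the type II receptor, Il13ra1, went the other way, with 45.6, 30.1 and 39.9. Il13ra1 was thus 1.51-fold lower in Scd2f/f TAL than in control liver, and the mean with Cre was 1.33 times that without. Il15ra, the chain that presents IL-15, had a like profile, with 15.8, 10.8 and 14.6. Neither Il13ra1 nor Il15ra was past 2-fold in any comparison.

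**Figure D3:**
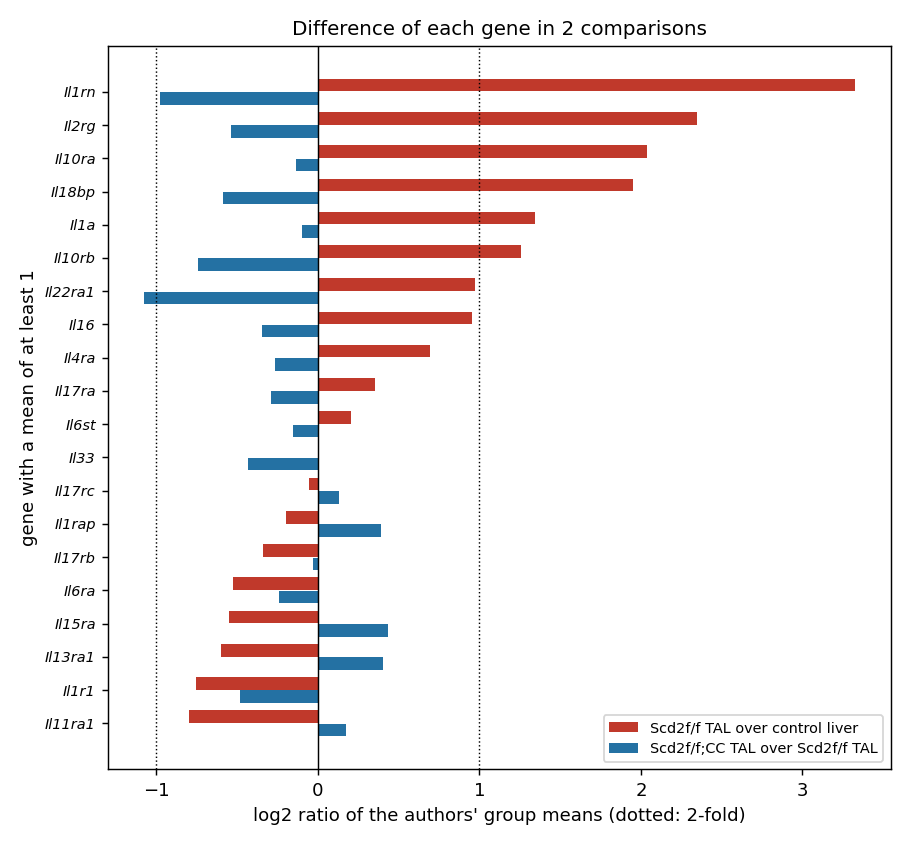
Log2 ratio of the authors' group means for the 20 members with a mean of at least 1, for Scd2f/f TAL over control liver (red) and Scd2f/f;CC TAL over Scd2f/f TAL (blue), with dotted lines at 2-fold. Red bars reach past the line for 6 genes, from Il10rb at 1.26 to Il1rn at 3.32. The blue bar passes it for Il22ra1, at -1.08, and comes close for Il1rn, at -0.98.

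The common gamma chain was among the largest differences. Il2rg, which encodes this chain of the receptors for IL-2, IL-4, IL-7, IL-9, IL-15 and IL-21, had a mean of 0.578 in control liver, 2.94 in Scd2f/f TAL and 2.03 in TAL with Cre. It was 5.09-fold and 3.51-fold above control liver in the TAL groups. With a pseudocount of 1, it remained past 2-fold in Scd2f/f TAL (log2 ratio 1.32) and was just short of it in Scd2f/f;CC TAL (0.94). Of its exon bases, 30.5% are shared with Gm20489, an overlapping gene model on the same strand, so part of its reads could be assigned to either. The lymphocyte chains that pair with it had means under 1 and were picked out after their values were seen. Il2rb, shared by the IL-2 and IL-15 receptors, had 0.389, 1.11 and 0.728 in control liver, Scd2f/f TAL and Scd2f/f;CC TAL. Il7r, the IL-7 receptor alpha chain, had 0.269, 0.769 and 0.341, and Il21r, the IL-21 receptor, had 0.115, 0.436 and 0.216. These 3 were between 2.85-fold and 3.79-fold above control liver in Scd2f/f TAL, and with Cre Il7r and Il21r were at 0.443 and 0.495 of their level without.

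Both chains of the IL-10 receptor were higher after DEN and WAD. Il10ra, the binding chain found on leukocytes, had a mean of 0.802 in control liver, 3.30 in Scd2f/f TAL and 3.01 in TAL with Cre. It was 4.11-fold and 3.75-fold above control liver, and between the TAL groups it differed little, with a ratio of 0.912. Il10rb, the broadly expressed chain also used by IL-22 and the lambda interferons, had 2.86, 6.83 and 4.09. It was 2.39-fold above control liver in Scd2f/f TAL and 1.43-fold above it in Scd2f/f;CC TAL, and the mean with Cre was 0.599 of that without. Of the exon bases of Il10rb, 14.9% are shared with the gene model Gm21970.

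Il22ra1 was the member past both limits in the comparison of genotypes, although the log2 ratio of Il1rn (-0.98) was close to its own (-1.08). It encodes the chain that gives epithelial cells, hepatocytes among them, their response to IL-22. Its mean was 2.01 in control liver, 3.94 in Scd2f/f TAL and 1.87 in TAL with Cre. The Scd2f/f TAL mean was 1.96-fold that of control liver, just short of the limit, and the mean with Cre was 2.11-fold lower than without and 0.930 of control liver. With a pseudocount of 1 the log2 ratio between the TAL groups was -0.78, under 2-fold. Il20rb, a chain of the IL-20 receptors in the same family, had a mean under 1 and stayed between 0.275 and 0.310.

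Chains of the IL-17 receptors differed little. Il17ra, the shared chain, had means of 9.15, 11.7 and 9.59 in control liver, Scd2f/f TAL and Scd2f/f;CC TAL, and Il17rc, its partner for IL-17A and IL-17F, had 6.57, 6.32 and 6.91. Il17rb, a chain of the IL-25 receptor, had 3.98, 3.15 and 3.09. Ratios of these 3 lay between 0.776 and 1.28 in the 3 comparisons. Il17rd, a family member also known as an inhibitor of FGF signalling, had a mean under 1 (0.457 to 0.587).

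Among the 14 members with a mean under 1, 5 were higher by 2-fold or more in Scd2f/f TAL than in control liver and 1 was lower. Over all 34 members this made 11 higher and 1 lower, where 10.1% and 3.45% of all 13551 protein-coding genes were. The 5 genes were Il2rb, Il7r and Il21r, Il27ra, the IL-27 receptor, with 0.408 in control liver and 0.904 in Scd2f/f TAL, and Il4i1, an amino acid oxidase of antigen-presenting cells, with 0.197 and 0.861. These genes were named after their values were seen. Of the exon bases of Il4i1, 86.3% are shared with Nup62, Atf5 and Tbc1d17 together, so its level is uncertain. Il12rb1, a chain of the IL-12 and IL-23 receptors, was the lower one. Its mean was 0.975 in control liver, 0.219 in Scd2f/f TAL and 0.322 in TAL with Cre. With Cre against without, Il7r and Il21r made 3 of the 34 members lower by 2-fold together with Il22ra1, and 0 were higher, where 3.97% and 0.915% of all protein-coding genes were. In Scd2f/f;CC TAL against control liver, 6 of the 34 were higher and 2 lower, where 6.38% and 3.82% of all protein-coding genes were. Il3ra, the IL-3 receptor alpha chain, rounds off the members with 0.538, 1.01 and 0.821.

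Level separated the members. The 11 members with a mean of at least 5, 10 of them receptor chains, had a median log2 ratio of -0.20 in Scd2f/f TAL against control liver, and 7 of them had a ratio below 1. The 9 others that passed the limit of 1 include 5 of the 6 that were past 2-fold. Thus the sign of the median over the members depends on whether the genes with low means are counted.

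Leukocyte transcripts differed between the same groups. All 13 macrophage markers with a mean of at least 1 were higher by 2-fold or more in Scd2f/f TAL than in control liver, against 6.59% of protein-coding genes, and the summed means of the 14 on the list were 109 in control liver, 437 in Scd2f/f TAL and 348 in TAL with Cre. The largest among them were Gpnmb, a gene of lipid-laden macrophages (0.0937, 8.98 and 0.638), and Marco, a scavenger receptor (0.870, 14.6 and 10.7). Of the 13, Gpnmb, Marco, Ccr2, Cd14 and Itgam had a mean under 1 in control liver and reached the limit through the TAL means. Clec4f, a Kupffer cell lectin, had 27.3, 71.2 and 71.7. Of 17 T and NK cell markers, 2 had a mean of at least 1. Of the 2, Klrk1 was higher by 2-fold in Scd2f/f TAL, likewise from a mean under 1 in control liver (0.564). The other of these, Zap70, a T cell kinase named after its values were seen, had 3.90 in control liver, 2.57 in Scd2f/f TAL and 3.70 in TAL with Cre. With no limit on the mean, 14 of the 17 were higher by 2-fold in Scd2f/f TAL (against 10.1% of protein-coding genes) and 7 were lower by 2-fold with Cre than without (against 3.97%). Their summed means were 7.26, 14.2 and 10.8. Cd3e, a T cell receptor subunit, had 0.226, 1.25 and 0.545. Of the 4 neutrophil markers with a value, all, likewise with no limit on the mean, were higher by 2-fold in Scd2f/f TAL (against 10.1% of protein-coding genes). Their means in control liver were low, from 0.14 for Cxcr2 to 0.477 for Csf3r, and their sums were 1.18, 4.74 and 3.68. Sums of the 7 B cell markers were 4.22, 6.31 and 6.74. The sums of the macrophage, T and NK cell and neutrophil markers were higher in Scd2f/f TAL than in control liver. They were lower with Cre than without, while the B cell sum was not. Il2rg, Il10ra, Il2rb, Il7r and Il21r had the same order, with Il10ra differing little between the TAL groups (0.912). Other chains of lymphocytes did not, since Il12rb1 (0.975, 0.219 and 0.322) and Il18rap (0.194, 0.217 and 0.320) were higher with Cre than without. The part of these cell types in the levels of the chains was not tested.

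Summed levels of stellate cell and of cholangiocyte markers were lower with Cre than without, and no endothelial or hepatocyte marker was past 2-fold in that comparison. Of 10 stellate cell and fibroblast markers past the limit of 1, 5 were lower by 2-fold in Scd2f/f;CC TAL than in Scd2f/f TAL (3 with a pseudocount of 1), against 1.5% of protein-coding genes. The summed means of all 11 were 208 in control liver, 351 in Scd2f/f TAL and 200 in TAL with Cre. Col1a1, a fibrillar collagen chain, had 4.69, 19.6 and 4.51. Of 4 cholangiocyte markers past the limit, 2 were lower by 2-fold with Cre, and 1 with a pseudocount of 1. Cholangiocyte markers summed to 64.3, 59.2 and 25.6, with Spp1, osteopontin, at 52.3, 45.1 and 14.8 and Epcam at 1.97, 1.82 and 0.5. Endothelial markers summed to 140, 181 and 184 and hepatocyte markers to 40200, 36400 and 40200. Their part in the level of Il22ra1 was not tested.

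**Figure D4:**
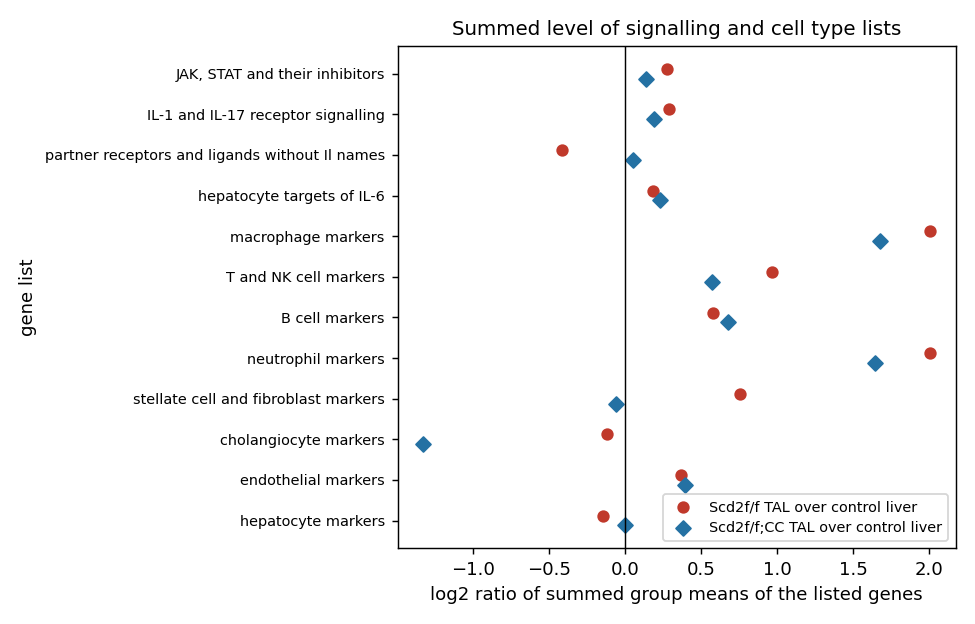
Log2 ratio to control liver of the summed group means of each gene list, for Scd2f/f TAL (red circles) and Scd2f/f;CC TAL (blue diamonds). Macrophage and neutrophil markers lie far to the right in both TAL groups (macrophage sums of 437 and 348 against 109 in control liver). Cholangiocyte markers lie to the left in Scd2f/f;CC TAL, at a sum of 25.6 against 64.3. Partner receptors and ligands summed to 420, 315 and 436 in control liver, Scd2f/f TAL and Scd2f/f;CC TAL. Lifr alone made 386, 225 and 359 of this. Of the 8 of them with a mean of at least 1, 7 had a ratio above 1 in Scd2f/f TAL against control liver.

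Downstream of the receptors, most JAK and STAT genes differed by less than 2-fold. Of 20 genes of this list with a mean of at least 1, 3 were higher by 2-fold in Scd2f/f TAL than in control liver and 0 lower, against 6.59% and 2.27% of protein-coding genes. Among them were Socs3 and Ptpn6, the leukocyte phosphatase SHP-1 (5.16 in control liver, 14.3 in Scd2f/f TAL, 12.2 in Scd2f/f;CC TAL). Jak1, the kinase used by gp130 and the gamma chain, stayed at 91.4, 92.8 and 83.1, and Stat3, the factor that IL-6, IL-10 and IL-22 activate, at 49.5, 54.8 and 52.7. With Cre against without, 2 of the 20 were lower by 2-fold and 0 higher, against 1.5% and 0.481% of protein-coding genes. Both encode feedback inhibitors that STAT factors induce. Socs3, which restrains gp130 signalling, had 6.44 in control liver, 16.2 in Scd2f/f TAL and 4.71 in TAL with Cre, so that the mean with Cre was 3.44-fold lower than without. Cish, a target of STAT5, had 10.8, 7.84 and 2.70, and its mean with Cre was 2.90-fold lower than without and 4.00-fold lower than in control liver.

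Of 17 genes that act below IL-1 and IL-17 receptors, 3 were higher by 2-fold in Scd2f/f TAL than in control liver and 0 lower, against 6.59% and 2.27% of protein-coding genes, and with a pseudocount of 1 only Tnfaip3 was. Tnfaip3, the inhibitor A20, had a mean of 1.78 in control liver, 7.70 in Scd2f/f TAL and 2.92 in TAL with Cre. It was also the 1 gene of the 17 lower by 2-fold with Cre than without, against 1.5% of protein-coding genes. Irak3, a kinase-dead member of the IRAK family, had 0.813, 1.90 and 1.26 and so reached the limit through the TAL means. Nfkbiz, a nuclear IkB protein, had 3.13, 7.25 and 4.99. The adaptor Myd88 (5.98, 7.65 and 6.83) and the NF-kB subunits Rela (16.1, 18.7 and 16.4) and Nfkb1 (13.7, 14.9 and 14.0), named after their values were seen, differed less, as did the inhibitors Nfkbia, Sigirr and Tollip, with ratios of 1.61, 1.27 and 0.886 between Scd2f/f TAL and control liver.

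Of 8 partner receptors and ligands without an Il name and with a mean of at least 1, 4 were higher by 2-fold in Scd2f/f TAL than in control liver (3 with a pseudocount of 1), against 6.59% of protein-coding genes. Of these, Csf2rb2 and Csf2ra had a mean under 1 in control liver and reached the limit through the TAL groups. Csf1r, the receptor for CSF-1 and IL-34, had a mean of 17.0 in control liver, 60.8 in Scd2f/f TAL and 53.5 in TAL with Cre. Csf2rb2, the beta chain specific to IL-3, had 0.631, 2.68 and 1.60, and Csf2rb, the beta chain shared with IL-5 and GM-CSF, had 2.76, 6.91 and 5.96. Csf2ra, the GM-CSF receptor alpha chain, had 0.929, 1.99 and 1.82. Lifr, the gp130 partner for LIF and oncostatin M that hepatocytes express highly, had 386, 225 and 359, a ratio of 0.583 between Scd2f/f TAL and control liver. Osmr, the other oncostatin M receptor, had 3.23, 4.82 and 3.07. Ebi3, the partner of IL-27 p28, had means under 1 (0.103, 0.553 and 0.350). With Cre against without, 0 of the 8 genes were past 2-fold in either direction, where 0.481% of protein-coding genes were higher and 1.5% lower.

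Hepatocyte targets of IL-6 were examined as a readout of the acute phase response, to which other signals also contribute. Of 16 genes, 6 were higher by 2-fold in Scd2f/f TAL than in control liver and 0 lower, against 6.59% and 2.27% of protein-coding genes. Lcn2, an iron-scavenging lipocalin, had a mean of 5.21 in control liver, 41.8 in Scd2f/f TAL and 14.1 in TAL with Cre. Saa2, a serum amyloid, had 8.95, 56.4 and 33.5, Saa1 had 47.0, 112 and 77.6, and Orm2, an orosomucoid, had 5.83, 32.0 and 12.3. With Cre against without, 2 of the 16, Lcn2 and Orm2, were lower by 2-fold (2.96-fold and 2.6-fold), against 1.5% of protein-coding genes. The fibrinogen chains Fga, Fgb and Fgg, named after their values were seen, had ratios between 0.982 and 1.18 in Scd2f/f TAL against control liver, and Hamp, which encodes hepcidin, had a ratio of 0.516.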

How the data were processed

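Polyadenylated RNA was prepared with the Illumina TruSeq v2 kit, which does not mark strand, and sequenced by the authors. The submitters' processing notes name STAR 2.6.1, Partek 6 and the build mm10. Gene counts were made by the authors in Partek (E/M quantification, Gencode M3 annotation) and scaled to the upper quartile. The deposited signal is the least-squares mean of these normalized counts for each of the 3 groups, with 3 significant digits, and its unit is not corrected for gene length. Of the 18 columns, 8 hold the authors' own p-values, FDR, ratios and fold changes, and these were not used. All ratios are quotients of the group means. Of 16171 genes matched by symbol to GENCODE M21 (GRCm38), 16167 overlapped the gene of that name, and exon lengths, the union over its transcripts, and overlaps were taken from it.

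A difference was called at 2-fold or more and a mean over the 3 groups of at least 1. Members with that mean are named, with the ligands below it and listed genes past 2-fold. The members, roles and lists were chosen with earlier results of these data known. Alternatives were other limits on the mean, other folds, pseudocounts of 0.1 and 1, median centring and leaving out overlapping genes. The Scd2f/f TAL mean appears in 2 identical columns, of which 1 was used. The depth per sample is unknown. The steps were tested on simulated group means. Software was Python 3.11.15, pandas 2.3.3, NumPy 2.4.6 and Matplotlib 3.10.9. Not every listed gene past 2-fold is reported here.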

Additional observations from a re-analysis of the deposited data

How the results depend on the processing

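No paired analysis was possible because the table holds 1 mean per group, and for the same reason no replicate could be left out. Without a filter on low values, members past 2-fold between Scd2f/f TAL and control liver (the first comparison) were 11 higher and 1 lower. Between the TAL groups (the second) 3 were lower with Cre, and between Scd2f/f;CC TAL and control liver (the third) 2 were lower. Listed genes were then 58 higher in the first comparison (37 with the filter), 27 lower in the second (14 with it) and 9 lower in the third (5 with it). In all counts of listed genes, Csf1r, which is on 2 lists, is counted once for each. A mean of at least 0.5 gave 1 lower in the first and 2 lower in the third. A mean of at least 5 left 1 higher in the first, 0 lower in the second and 1 higher in the third, and turned the median log2 ratio of the first from 0.28 to -0.20. A fold of 1.5 gave 3 lower in each comparison, beside 9 higher in the first, 0 in the second and 6 in the third. A fold of 3 gave 4 higher in the first, 0 lower in the second and 3 higher and 0 lower in the third. The shares of all protein-coding genes past these folds were not computed. A pseudocount of 1 gave 0 lower in the second and 3 higher in the third, and listed genes were then 15 higher and 3 lower in the third. Leaving out members with at least 10% of exon bases shared, an alternative chosen after seeing the data, gave 3 higher in the first and in the third. A pseudocount of 0.1 and centring on the median of all genes moved no count of members by over 1.5 times. The other medians of the members kept their sign under the filters, pseudocounts and centring tried. The depth behind each mean is unknown, so values under 1 are the least certain.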
